A study of Mus musculus with 8 samples.

Results

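The comparison described here sets macrophages that received IL-10 together with LPS for the whole culture against macrophages that received IL-10 only for the last 30 min, gene by gene, by mature mRNA and by precursor (pre-mRNA). It uses the 4 libraries of those 2 groups, of 8 in the series, chosen by the group named in each column of the table, and covers all 11415 genes listed there. All cells were bone marrow-derived macrophages, grown for 5 days in conditioned medium containing M-CSF, from IL10-/-RAG2-/- mice of strain 129S6/SvEvTac, so no group could make functional IL-10 of its own and the mice lacked mature lymphocytes. One group had LPS at 1 ng/mL and IL-10 at 1 ng/mL for 195 min (IL-10 throughout, also called the long schedule). The other had LPS at 1 ng/mL for 195 min with IL-10 in the last 30 min (late IL-10, the late schedule), and the labels do not restate its IL-10 dose. Cells left untreated and cells given only LPS for 195 min complete the series. Each group held 2 libraries from 2 independent macrophage pools, made from ribosome-depleted total RNA with a directional kit. The 2 schedules differ both in how long IL-10 was present and in whether LPS acted alone first, and these cannot be told apart.

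IL-10 is an anti-inflammatory cytokine whose receptor signals through the kinases JAK1 and TYK2 to the transcription factor STAT3. In macrophages STAT3 activity switches on repressors and feedback inhibitors and limits the cytokines, chemokines and costimulatory molecules that LPS induces through Toll-like receptor 4. Pre-mRNA still holds introns and is processed within minutes, so its level follows current transcription more closely than mature mRNA, which carries transcripts made earlier for as long as they last. A short exposure can therefore move pre-mRNA before it moves mRNA.

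The 2 libraries of a group are called A and B here. They carry no replicate number, and A and B of different groups or measures need not come from the same pool. Levels are read counts divided by a library size factor (normalized reads). Differences are on the log2(normalized reads + 1) scale as IL-10 throughout minus late IL-10. Errors are standard errors from limma with n = 2 libraries per group. They draw on all libraries in the fit and on other genes, so they are not the spread of the 4 libraries compared alone. A gene passed the test at a Benjamini-Hochberg adjusted p under 0.05 in limma. Summed over the table, the 4 libraries compared carried between 31822644 and 53172133 reads as mRNA and between 15414715 and 31508394 as pre-mRNA. Libraries of the same group stood apart in several gene lists, the chemokines, matrix proteases and inflammasome genes of the late schedule among them. In interferon-stimulated genes the median log2 mRNA level differed between A and B by 1.63 in the long schedule and 1.37 in the late one (1.31 and 0.94 by pre-mRNA), against 0.25 between the untreated libraries (0.45 by pre-mRNA). Reads of Il10, the gene disrupted in these mice, stood at 5212 and 923 (mRNA) in the long schedule against 6199 and 1556 in the late one, and which part of the locus they cover is not shown by the table. Whether reads were counted by strand is not given in the sources used here, so reads of genes that overlap on opposite strands may be shared. Besides those named with their values, this holds for Mmp19 with Tmem198b, Cxcl10 with Art3 and Batf2 with Arl2. It also holds for Cdc42ep1 with Lgals2, Bcl6 with Gm37419, Plekhg3 with Sptb and Slc11a2 with Gm5475. In bulk samples, fewer cells of a type and less RNA per cell cannot be told apart.

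By mRNA 59 genes were higher and 65 lower with IL-10 throughout, 1.09% of the 11415 tested (0.517% higher and 0.569% lower). By pre-mRNA 84 were higher and 245 lower, 2.96% of 11131 tested (0.755% and 2.2%). Without adjustment, 689 genes were higher and 912 lower by mRNA at p under 0.05 (6.04% and 7.99%), and 972 and 1435 by pre-mRNA (8.73% and 12.9%). The shares given here, called and unadjusted, are those over all genes to set beside the list counts below. Both measures called 37 genes, 29.8% of the mRNA calls and 11.2% of the pre-mRNA calls. Of these, 28 were lower in both, among them Il12b, Csf2, Cxcl3, Cxcl10, Icam1 and Nfil3, 6 were higher in both (Neurl2, Cacna1d, Arid3a, Scd2, Tbl2 and Relt), and 3 were higher by mRNA and lower by pre-mRNA (Mt1, Bzw2 and Pygb). The libraries of the schedules did not overlap for 41.3% of genes by mRNA and 53.0% by pre-mRNA. Scaling to total reads instead of the size factors moved the median difference of all genes up by 0.28 (mRNA) and 0.43 (pre-mRNA), and upper-quartile scaling by 0.10 and 0.19, so differences here are relative to that choice. Under total-read scaling the pre-mRNA split was 144 higher and 208 lower, 40.9% higher in place of 25.5%, and the mRNA split 89 higher and 69 lower (0.78% and 0.604% of genes), turned from 59 and 65. The unadjusted splits turned too, to 1115 higher and 605 lower by mRNA and 1843 and 830 by pre-mRNA. The calls rest on all 4 libraries: without any one of them 1 to 8 mRNA calls and 1 to 33 pre-mRNA calls passed, with the sign of every main call kept, and fitting the 4 libraries alone gave 0 mRNA calls with limma (532 higher and 850 lower at an unadjusted p under 0.05, and 0 with limma-voom).

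**Figure D1:**
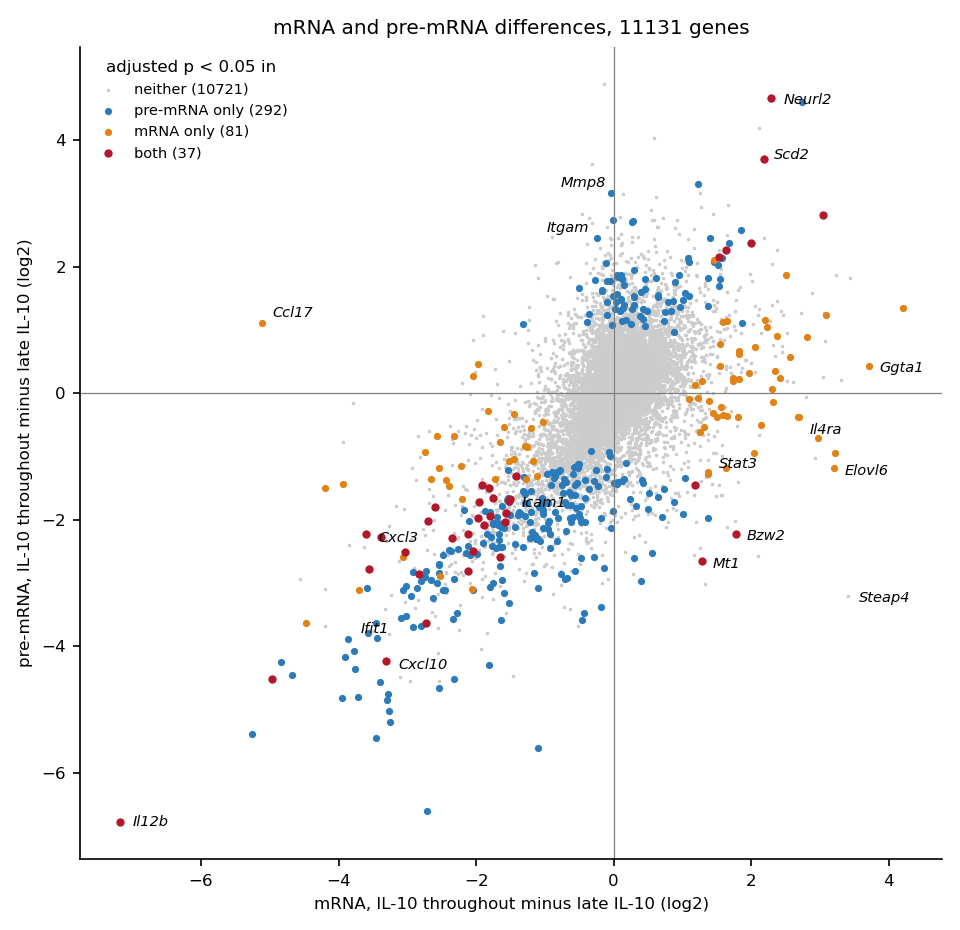
Each point is a gene, with its mRNA difference (x axis, log2) and pre-mRNA difference (y axis, log2) between IL-10 throughout and late IL-10, and colour gives the measure that passed an adjusted p under 0.05. The 28 genes lower in both lie at the lower left, and a separate arm to the right holds genes such as Ggta1 and Il4ra that were higher by mRNA alone.

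Several genes for cytokines that drive T cell and myeloid responses were lower with IL-10 throughout. Il12b, which encodes the p40 chain of both IL-12 and IL-23 and lies at mm10 chromosome 11, 44400063 to 44414033, had 269.9 and 226 normalized mRNA reads in the 2 libraries of the long schedule and 60456 and 21537 in the late one, beside 28761 and 65667 with LPS alone. Its mRNA in the late schedule overlapped that of LPS alone, and both libraries of the long schedule were far below (-7.18 ± 0.56, adjusted p = 0.00836). Il12b pre-mRNA was 16.2 and 10.8 in the long schedule, 2072 and 1188 in the late schedule and 14002 and 10184 with LPS alone, so the precursor in the late schedule stood between the other groups without overlap (IL-10 throughout minus late IL-10 -6.78 ± 0.72, adjusted p = 0.0144; late IL-10 minus LPS -2.93 ± 0.72, adjusted p = 0.162, which did not pass). Il12a, the partner subunit in IL-12, had 41.1 and 17 mRNA reads against 1085 and 344 (-4.48 ± 0.72, adjusted p = 0.0431), and Il23a, the partner in IL-23, had 10.7 and 9.56 against 173 and 166 (-3.94 ± 0.49). All 3 subunits of IL-12 and IL-23 were therefore lower by mRNA, without overlap between the groups. Csf2, which encodes GM-CSF, had 9.83 and 7.44 mRNA reads against 552 and 161 (-4.97 ± 0.73). Its pre-mRNA came to 2 reads over both libraries of the long schedule and 96 in the late one, 54.2 times as many after scaling (95% counting interval 14.6 to 453.7).

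Il6 mRNA, at 358 and 111 in the long schedule against 15630 and 3729, did not pass (-5.25 ± 0.91, adjusted p = 0.0537). Il6 pre-mRNA, at 157 and 61.5 against 6904 and 2494, did (-5.38 ± 0.66, adjusted p = 0.0208). Tslp, an epithelial-type cytokine gene, had no pre-mRNA read in the long schedule and 58 in the late one, at least 21.8-fold lower, taking 3 reads over both libraries as the floor. Il18, an inflammasome substrate, was lower by pre-mRNA (689.5 and 249 against 4989 and 2060.2, -2.95 ± 0.59); its locus overlaps Bco2 and Tex12 on the other strand. Of 25 cytokine genes tested by mRNA 4 were lower (0.569% of all genes) and none higher, with 17 lower at an unadjusted p under 0.05 (7.99%). The median difference was -1.65 against -0.01 for all genes. By pre-mRNA 8 of 24 were lower (Il6, Il12b, Il27, Il18, Csf1, Csf2, Tnfsf15 and Tslp), against 2.2% of all genes, and none higher, with a median of -1.57 against 0.00. Total-read scaling called 8 of the list lower by mRNA (0.604% of all genes). Tnf and Il1b, classical LPS cytokines, did not pass. Tnf mRNA was 48416 and 45891 against 109950 and 98297 (-1.14 ± 0.19, adjusted p = 0.0508), with pre-mRNA at -0.30 ± 0.30, and Il1b mRNA was 129350 and 47218 against 350060 and 154050 (-1.57 ± 0.59, adjusted p = 0.29).

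Chemokine genes, whose products recruit neutrophils, monocytes and T cells, were called lower as well. Cxcl10, a ligand of the chemokine receptor CXCR3, had 17499 and 11309 mRNA reads in the long schedule against 209540 and 93638 in the late one (-3.32 ± 0.53, adjusted p = 0.0419) and 313 and 264 against 6928 and 4273 pre-mRNA reads (-4.24 ± 0.63, adjusted p = 0.026). In the late schedule both measures overlapped LPS alone (83311 and 207590 by mRNA, 7632 and 4012 by pre-mRNA). The neutrophil chemokine Cxcl3 had 5678 and 1926 against 46287 and 34719 mRNA reads (-3.60 ± 0.47) and 224 and 111 against 611 and 907 pre-mRNA reads (-2.23 ± 0.45). Its relatives Cxcl1 (-2.75 ± 0.26) and Cxcl2 (-2.32 ± 0.35) were lower by mRNA, while their pre-mRNA differences of -0.93 ± 0.47 and -0.69 ± 0.33 did not pass. Reads of this cluster of similar genes may be split between them. Cxcl9, another CXCR3 ligand, had 1 pre-mRNA read in the long schedule and 330 in the late one, 372 times as many after scaling (interval 66.4 to 14750). Ccl22, a ligand of CCR4, had 2.95 and 4.31 against 101 and 74.1 pre-mRNA reads (-4.25 ± 0.49), and late IL-10 lay between that and LPS alone (371 and 305). Of 19 chemokine genes 5 were lower by mRNA (Ccl17, Cxcl1, Cxcl2, Cxcl3 and Cxcl10) and 10 by limma-voom (0.771% of all genes lower), with a median of -2.75. By pre-mRNA 8 of 18 were lower, with a median of -2.13. Limma called no chemokine gene higher; by pre-mRNA 2 of 18 lay above 0, and 1 was higher without adjustment. The median chemokine mRNA level differed between libraries A and B by 1.64 in the late schedule and 0.29 in the long one.

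The stretches upstream of 3 of these genes are shown because they hold a copy of an element known to bind NF-κB (GGGA, any base, then TTTCC) or interferon-activated factors (GAAA, any 2 bases, GAAA), both of which LPS activates. Each runs 5′ to 3′ on the gene's strand, from 250 to 21 bases before the start given by RefSeq (GRCm38.p6), with the match in capitals. Coordinates are chr5:92348910-92349139 on the minus strand for Cxcl10, chr5:90785851-90786080 on the plus strand for Cxcl3 and chr5:30012864-30013093 on the plus strand for Il6.
Cxcl10: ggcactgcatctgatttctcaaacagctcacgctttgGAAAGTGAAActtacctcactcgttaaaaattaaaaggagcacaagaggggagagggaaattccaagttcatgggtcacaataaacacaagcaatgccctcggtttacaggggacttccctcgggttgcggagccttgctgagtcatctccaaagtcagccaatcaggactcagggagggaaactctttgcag
Cxcl3: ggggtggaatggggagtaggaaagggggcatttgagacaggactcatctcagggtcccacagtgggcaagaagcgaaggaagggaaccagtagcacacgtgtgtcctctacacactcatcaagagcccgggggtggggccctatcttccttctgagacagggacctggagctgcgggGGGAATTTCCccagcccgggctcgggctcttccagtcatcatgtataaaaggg
Il6: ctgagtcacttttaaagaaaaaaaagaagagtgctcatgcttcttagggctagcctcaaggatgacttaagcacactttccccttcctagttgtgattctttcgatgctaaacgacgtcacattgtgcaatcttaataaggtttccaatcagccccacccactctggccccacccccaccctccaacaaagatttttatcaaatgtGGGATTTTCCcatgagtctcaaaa
The interferon-type match of Cxcl10 begins at position -213 relative to the start, and the NF-κB-type matches of Cxcl3 and Il6 at -73 and -44. A match is a description of the letters and does not show binding.

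Interferon-stimulated genes, the antiviral program that LPS drives through autocrine type I interferon, gave 16 pre-mRNA calls among 46 genes, the highest count of the 31 lists; by share the chemokines, with 8 of 18, were ahead. Ifit1, an antiviral RNA-binding protein (mm10 chromosome 19, 34640871 to 34650009), had 1813 and 480.0 pre-mRNA reads in the long schedule, 17973 and 6496 in the late schedule and 17602 and 7822 with LPS alone. The long schedule was lower (-3.53 ± 0.71, adjusted p = 0.0462), and late IL-10 and LPS alone overlapped. Ifit1 mRNA, at 20850 and 5362 against 168760 and 43608, did not pass (-3.02 ± 0.91, adjusted p = 0.207), and its 2 libraries within each group lay far apart. Oasl1, a relative of the 2′-5′-oligoadenylate synthetases, had 2184 and 1389 against 11280 and 8504 pre-mRNA reads (-2.49 ± 0.36), and Oas1g 979 and 495 against 5142 and 3139.7 (-2.53 ± 0.39). Oas1g has near-identical neighbours, so its reads are uncertain. Iigp1, an immunity-related GTPase, had 121 and 41 against 4262 and 965 (-4.83 ± 0.92). Stat2, a subunit of the factor that drives these genes, had 2069 and 936 against 7078 and 5172 (-2.12 ± 0.41).

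Of 46 interferon-stimulated genes 16 were lower by pre-mRNA (Ifit1, Ifit2, Ifit3, Isg20, Mx1, Oas1g, Oas2, Oas3, Oasl1, Irf7, Irf1, Stat2, Gbp7, Iigp1, Igtp and Usp18). All 46 were below 0, and all 46 had an unadjusted p under 0.05. Their median was -2.51, against 0.00 for all genes, and total-read scaling called 24 of them lower (1.87% of all genes). By mRNA limma called 0 of the 46, with 36 lower at an unadjusted p under 0.05, a median of -1.81 and 0 calls with limma-voom. The fit counts the gap between libraries A and B of a group, given above for this list, as error. With a block of pools matched from the values themselves, whose p-values can be too small, 29 of 46 were lower by mRNA and 44 by pre-mRNA (8.53% and 14.6% of all genes). By pre-mRNA 0 of the 46 passed without any one of the 4 libraries compared, 3 without either untreated library, 25 and 26 without LPS library A and B, 5 when only the 2 schedules or only the LPS-treated groups were fitted, and 0 with no filter on low values.

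Ifit1 carries 2 copies of the interferon-type element at -104 and -85 from its RefSeq start, read on the minus strand, in the stretch chr19:34640639-34640868 on the plus strand (GRCm38.p6), shown with the copies in capitals.
Ifit1: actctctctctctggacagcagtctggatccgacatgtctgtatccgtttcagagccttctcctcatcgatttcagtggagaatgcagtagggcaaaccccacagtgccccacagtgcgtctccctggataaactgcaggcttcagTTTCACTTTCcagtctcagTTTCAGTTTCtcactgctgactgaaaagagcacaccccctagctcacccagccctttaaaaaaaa
In the promoter windows that could be matched by symbol, from 250 bases before to 50 after the start, the interferon-type element lay on either strand in 9.96% of 251 windows of genes lower by pre-mRNA and in 0 of 87 windows of genes higher by pre-mRNA, against 3.34% of 11232 windows of all genes of the table. By mRNA it lay in 3.9% of windows of lower and 3.03% of higher genes. It lay in 50% of 42 windows of the interferon list. The genes lower by pre-mRNA include the 16 of that list called lower, so the 2 sets share windows. Windows were found for 185 of the 245 lower genes, 67 of the 84 higher genes and 8802 of 11415 genes in all. The NF-κB-type element lay in 3.9% of 77 windows of genes lower by mRNA against 0.499% for all genes, that is in 3 windows, and in 1.52% of 66 windows of genes higher by mRNA. With any base in place of its A, the element lay in 5.19% of windows of genes lower by mRNA, 6.06% of genes higher by mRNA and 1.71% of all, 4 windows in each called set. By pre-mRNA the stricter form lay in 1.2% of windows of lower and 0% of higher genes, and the looser form in 1.99% and 1.15%. The palindrome TTCNNNGAA, the core of STAT binding sites, lay in 8.76% of windows of genes lower and 2.3% of genes higher by pre-mRNA and in 7.79% and 10.6% by mRNA, against 7.04% for all.

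**Figure D2:**
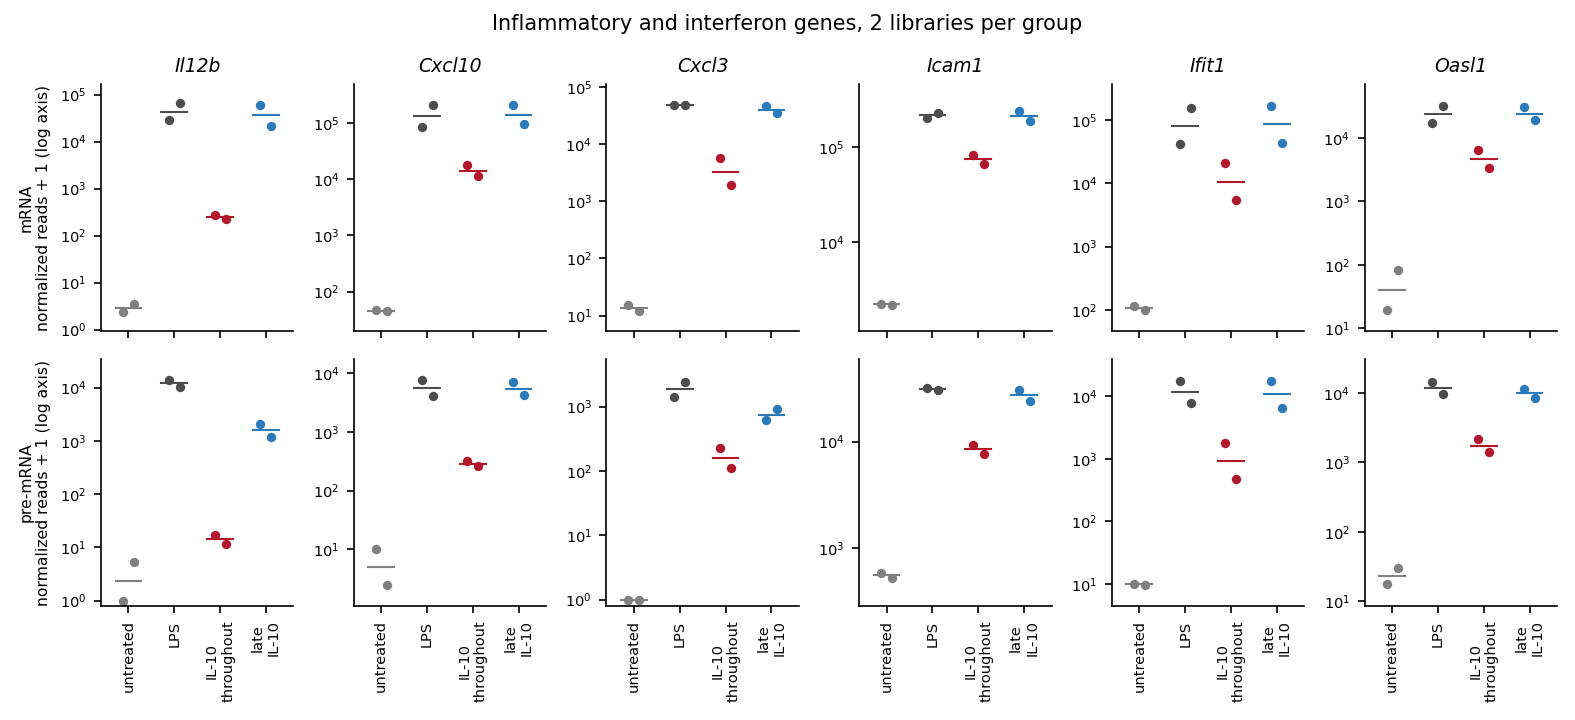
Normalized reads + 1 (log axis) of 6 genes in each library of the 4 groups, mRNA in the top row and pre-mRNA in the bottom row. Points are libraries and lines are the means of the log values. For all 6 genes both libraries with IL-10 throughout lie below both with late IL-10, which lie near LPS alone except for Il12b and Cxcl3 pre-mRNA.

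Limma called genes of MHC class I presentation and costimulation by pre-mRNA and none by mRNA. The peptide transporter gene Tap1 had 939 and 415 against 4004 and 2295 pre-mRNA reads (-2.28 ± 0.45, adjusted p = 0.046), and the neighbouring immunoproteasome subunit Psmb9 had 502 and 345 against 1945 and 1087 (-1.80 ± 0.36). The 2 genes overlap in the annotation on opposite strands. With Psmb10 they were the 3 called of 22 genes of MHC class I presentation, of which 18 were lower at an unadjusted p under 0.05 (median -1.13, and by mRNA -0.60 with 0 called by limma, 6 lower unadjusted and 0 by limma-voom). Cd40, a costimulatory receptor, had 13169 and 6998 against 50010 and 35527 pre-mRNA reads (-2.13 ± 0.39) and was the 1 gene called of 14 costimulatory and checkpoint ligands (median -1.40; 3 were lower by total-read scaling). By mRNA that list had a median of -1.11, with 1 higher and 9 lower without adjustment, 1 higher by limma-voom and 1 lower by upper-quartile scaling (0.631% of all genes). Itgax, which encodes the integrin CD11c, was lower by pre-mRNA (2730.2 and 2697 against 12849 and 10156, -2.07 ± 0.30).

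Of 32 genes of the NF-κB pathway and its feedback, Icam1, the adhesion molecule that binds leukocyte integrins, was the 1 called by limma, in both measures (limma-voom called 2 lower by mRNA and 1 by pre-mRNA). Its mRNA was 81603 and 66809 in the long schedule and 238900 and 186080 in the late one (-1.51 ± 0.24, adjusted p = 0.0414), and its pre-mRNA 9324 and 7655 against 30379 and 23956 (-1.67 ± 0.27). The list medians were -0.47 by mRNA and -0.70 by pre-mRNA, with 13 and 14 lower at an unadjusted p under 0.05. Over all genes 7.99% and 12.9% were lower without adjustment, and 0.569% and 2.2% were called lower. Among 31 Toll-like receptor and adaptor genes Tlr9, the receptor for CpG DNA, was lower by mRNA (475 and 543 against 2140.5 and 2088, -2.05 ± 0.28), as was the adaptor Ticam2 (-1.59 ± 0.25), which overlaps Tmed7 on the same strand. By pre-mRNA limma and limma-voom called 0 of this list, with 2 higher and 12 lower at an unadjusted p under 0.05 (8.73% and 12.9% of all genes).

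Some genes of the IL-10 response and of cytokine feedback were lower in the long schedule than 30 min after IL-10. Nfil3, a repressor that acts at the Il12b locus, had 1622 and 1394 pre-mRNA reads in the long schedule, 9398 and 8748 in the late schedule and 1076 and 749 with LPS alone. The precursor was thus highest in the late schedule (-2.59 ± 0.31 between the schedules, adjusted p = 0.0206; late IL-10 minus LPS 3.33 ± 0.31, adjusted p = 0.00396), and its mRNA was also lower in the long schedule (2949 and 2697 against 9341 and 8423, -1.65 ± 0.24). Arid5a, an RNA-binding protein, was also highest in the late schedule by pre-mRNA, but with LPS alone above the long schedule: 898 and 713, 11358 and 8092 and 3448 and 1124 for the long schedule, the late schedule and LPS alone (-3.58 ± 0.49). Its late IL-10 and LPS values did not differ past the threshold (adjusted p = 0.101). Bach1, a haem-regulated repressor, had 3070.2 and 2024, 17898 and 11639 and 1637 and 1416 pre-mRNA reads for the same 3 groups (-2.53 ± 0.31). Socs1, an inhibitor of JAK kinases, was lower by mRNA (1506 and 1722 against 9527 and 8987, -2.52 ± 0.34), and Cish, another member of that family, by pre-mRNA (399.7 and 127 against 3739 and 2284, -3.69 ± 0.54). Over the 11 SOCS, Cish and Pim genes, late IL-10 minus LPS had a median of -0.04 by mRNA and 0.03 by pre-mRNA. For IL-10 throughout minus LPS the medians were -0.88 and -0.62, so as a list these genes did not peak in the late schedule. Socs3, the STAT3-induced inhibitor of IL-6 receptor signalling, did not pass in either measure (133730 and 146030 against 181970 and 186530 mRNA reads, -0.40 ± 0.28, adjusted p = 0.625; pre-mRNA -0.60 ± 0.52). Bcl3, an NF-κB regulator, was at 0.86 ± 0.40 by mRNA and -0.85 ± 0.29 by pre-mRNA, neither past the threshold.

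A set of genes had more mRNA with IL-10 throughout, while their precursor did not differ past the threshold or was higher in the late schedule. The difference of the 2 differences, pre-mRNA minus mRNA, was tested for 11131 genes in 1 fit, which takes the measures as independent even though each pair was read from 1 RNA sample. It called 55 genes (0.494%), 38 with a smaller pre-mRNA than mRNA difference (0.341%) and 17 with a larger one (0.153%), against 445 (4.0%) and 389 (3.49%) without adjustment. Ggta1, which makes the alpha-galactosyl epitope of glycans (mm10 chromosome 2, 35400179 to 35463231), had 32278 and 25286 mRNA reads in the long schedule, 2313 and 2039.8 in the late schedule and 1224 and 1436 with LPS alone. Its pre-mRNA was 25048 and 24168, then 20277 and 16464, then 1144 and 1070.2. The mRNA difference between the schedules was 3.72 ± 0.20 (adjusted p = 0.00407), the pre-mRNA difference 0.43 ± 0.26 (adjusted p = 0.389) and the difference between the measures -3.29 ± 0.29 (adjusted p = 0.00127). Precursor was therefore high in both IL-10 groups and mature mRNA in the long one. Ggta1 was also called by mRNA whichever of the 4 libraries compared was left out.

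Il4ra, the alpha chain of the IL-4 receptor (mm10 chromosome 7, 125552120 to 125579474), followed the same pattern. It had 152760 and 127110 mRNA reads in the long schedule and 25970 and 17701 in the late one (2.70 ± 0.31, adjusted p = 0.0192). Its pre-mRNA was 32618 and 24220 against 39660 and 33596 (-0.38 ± 0.32, difference between measures -3.08 ± 0.44), both far above the 5272 and 4083 of LPS alone. Stat3, which transmits the IL-10 signal, had 23882 and 22906 against 10299 and 7918 mRNA reads (1.37 ± 0.22) and 8405 and 7599 against 21832 and 17248 pre-mRNA reads (-1.28 ± 0.32, not past the threshold; difference between measures -2.65 ± 0.39). Ptpn1, a phosphatase that acts on JAK2 and TYK2, had 30921 and 38708 against 7201 and 9741 mRNA reads (2.05 ± 0.29) and 17139 and 15947 against 31698 and 31892 pre-mRNA reads (difference between measures -2.99 ± 0.40). In the annotation Stat3 overlaps the end of Stat5a on the other strand. The fatty acid elongase Elovl6 (525 and 274 against 37.8 and 42.6 by mRNA, 351 and 367 against 850.3 and 790.0 by pre-mRNA; difference between measures -4.40 ± 0.48) and the metalloproteinase Mmp19 (difference between measures -4.16 ± 0.58) did likewise.

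Steap4, a metalloreductase that handles iron and copper, had the largest difference between the measures (-6.61 ± 1.04, adjusted p = 0.0183). Its mRNA was 5598 and 4925 in the long schedule, 542 and 449 in the late schedule and 15.5 and 51.8 with LPS alone, and its pre-mRNA 285 and 106, 1749 and 1479 and 14.1 and 2.7. The mRNA was highest in the long schedule and the precursor in the late one, although neither schedule difference alone passed (adjusted p = 0.0609 by mRNA and 0.063 by pre-mRNA). The stretch chr5:7960222-7960451 on its plus strand, from 250 to 21 bases before the RefSeq start (GRCm38.p6), is shown because it holds a STAT-type palindrome at position -116, in capitals.
Steap4: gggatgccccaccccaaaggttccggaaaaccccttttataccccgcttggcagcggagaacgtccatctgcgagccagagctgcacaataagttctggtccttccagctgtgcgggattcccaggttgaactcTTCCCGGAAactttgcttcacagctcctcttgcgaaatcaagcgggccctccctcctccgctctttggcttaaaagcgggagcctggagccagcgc

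Mt1, Bzw2 and Pygb passed in both measures with opposite signs. Mt1, which encodes a metal-binding metallothionein and has close relatives, had 27805 and 25974 against 11292 and 10770 mRNA reads (1.28 ± 0.20, adjusted p = 0.0404). Its pre-mRNA was 376 and 285 against 1952 and 2211 (-2.66 ± 0.33, adjusted p = 0.0208), with 54.1 and 97.2 in LPS alone, so 30 min of IL-10 had the highest precursor and the long schedule the highest mRNA. Bzw2, a regulator of translation initiation, had 1515 and 1042 against 400.4 and 333 mRNA reads (1.78 ± 0.25) and 533 and 428 against 2659 and 1874 pre-mRNA reads (-2.22 ± 0.31). It overlaps Ankmy2 on the other strand. Pygb, a glycogen phosphorylase, stood at 1.19 ± 0.19 by mRNA and -1.45 ± 0.25 by pre-mRNA. Of the 38 genes with a smaller pre-mRNA than mRNA difference, 20 were called higher by mRNA, 13 were called lower by pre-mRNA, and 33 had opposite signs in the 2 measures.

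**Figure D3:**
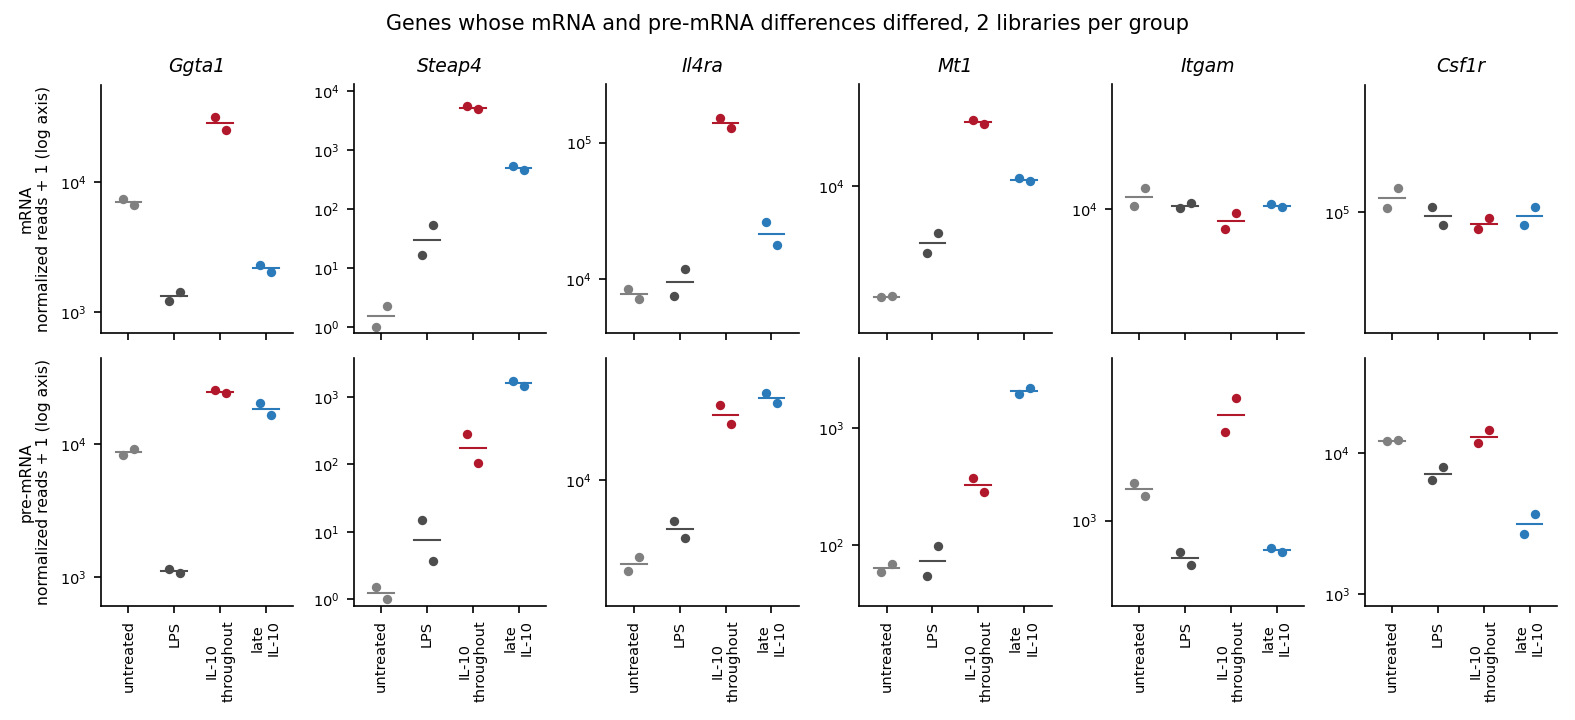
Normalized reads + 1 (log axis) of 6 genes whose schedule difference differed between mRNA (top row) and pre-mRNA (bottom row), 2 libraries per group, with lines at the means of the log values. Ggta1, Steap4, Il4ra and Mt1 mRNA is highest with IL-10 throughout while their pre-mRNA is high after 30 min; Itgam and Csf1r differ by pre-mRNA and overlap or lie close by mRNA.

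The opposite arrangement, a higher precursor with IL-10 throughout and no called difference in mRNA, included Itgam, Csf1r and Itgb2. They do not stand for macrophage identity genes as a list: of 22 tested by pre-mRNA 14 lay below 0 (median -0.40), 2 were called higher and 1 lower (Mertk), and 3 were higher and 4 lower without adjustment (8.73% and 12.9% of all genes). The sign of that median depends on the scaling. Under total-read scaling it was 0.02, with 2 called higher and 1 lower. Itgam, which encodes the integrin CD11b, had 3056 and 4657 pre-mRNA reads in the long schedule, 707 and 677 in the late schedule, 677 and 569.5 with LPS alone and 1604 and 1367 untreated. The long schedule was above all other groups (2.45 ± 0.25 against late IL-10, adjusted p = 0.0144), while its mRNA was 8035 and 9572 against 10559 and 10236 (-0.25 ± 0.19, difference between measures 2.69 ± 0.32). The predicted gene Gm49368 overlaps Itgam on the same strand. Csf1r, the receptor for M-CSF, had 11717 and 14528 against 2679.9 and 3664 pre-mRNA reads (2.06 ± 0.29) and 83293 and 93559 against 86740 and 105480 mRNA reads (-0.12 ± 0.26, difference between measures 2.17 ± 0.40). Csf1r overlaps Hmgxb3 on the other strand. Late IL-10 was the lowest of the 4 groups by Csf1r pre-mRNA, with 6383 and 7922 in LPS alone and 12137 and 12361 untreated. Itgb2, which encodes the CD18 partner of CD11b, was likewise higher by pre-mRNA (7524 and 8854 against 2118 and 2630.3, 1.79 ± 0.29; difference between measures 2.06 ± 0.35).

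The amino acid transporter Slc43a2 had 3575 and 3877 against 458 and 684 pre-mRNA reads (2.73 ± 0.25) and 17176 and 16993 against 15191 and 19274 mRNA reads (difference between measures 2.73 ± 0.33). Mmp8, a collagenase best known from neutrophils, had 105 and 166 against 13.2 and 14.6 pre-mRNA reads (3.16 ± 0.47) with overlapping mRNA (1799 and 1346 against 1832 and 1396). The chemokine gene Ccl17 differed most in this direction (6.23 ± 0.85, adjusted p = 0.00884): its mRNA was 6.26 and 4.25 against 282 and 162 (-5.12 ± 0.65), and its pre-mRNA, with few reads, 13.3 and 11.9 against 6.18 and 4.49. Of the 17 genes with a larger pre-mRNA than mRNA difference 10 were called higher by pre-mRNA and 3 lower by mRNA. Total-read scaling called 7 and upper-quartile scaling 9 genes in this direction (0.0629% and 0.0809% of all genes), in place of 17.

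The claudin gene Cldn23 was listed at 0 for pre-mRNA in every group. It had 1 mRNA read in the long schedule and 179 in the late one, 172 times as many after scaling (interval 30.5 to 6840). Hdac9, a class II histone deacetylase, had the largest called mRNA difference upwards (812 and 638 against 25.8 and 55.8, 4.21 ± 0.58), and the repressor Bcl6 was also higher by mRNA (10680 and 9779 against 2193 and 2756, 2.06 ± 0.21). Of 21 transcriptional repressors, Bcl6, Hdac9 and Tle3 were higher and Nfil3 lower by mRNA, and by pre-mRNA Nfil3 and Bach1 were lower. Of 35 IL-10/STAT3 response genes, Il4ra and Bcl6 were higher and Nfil3 lower by mRNA (median 0.38). Without adjustment 10 of the 35 were higher and 5 lower (6.04% and 7.99% of all genes). Limma-voom called 5 of the list higher, total-read scaling 6 higher and 2 lower, and upper-quartile scaling 4 higher (0.666% of all genes). By pre-mRNA 2 of 32 were lower (2.2% of all genes) and none higher (median -0.50).

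Some lipid and oxygen-response genes were higher in the long schedule, chiefly by pre-mRNA. Of 29 cholesterol synthesis genes 5 were higher by pre-mRNA and Scap, which escorts the SREBP factors, was lower, with a median of 1.14 (19 were higher without adjustment). Lanosterol synthase (Lss) had 1162 and 997 against 228 and 288 pre-mRNA reads (2.07 ± 0.25, adjusted p = 0.0206), and Hsd17b7, which acts on sterol intermediates, 719 and 587 against 158 and 211 (1.82 ± 0.27). Fdps (1.86 ± 0.35) and Sc5d (1.33 ± 0.27), which act earlier and later in the pathway, were also higher. By mRNA limma called Acat2 higher (1158 and 919 against 212 and 237, 2.20 ± 0.30), and the median was 0.24; 5 were higher without adjustment, and limma-voom, total-read and upper-quartile scaling each called 2 higher. Total-read scaling called 9 of the list higher by pre-mRNA (1.29% of all genes) and upper-quartile scaling 8 (0.863%), and neither called Scap.

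Of 19 genes of cholesterol efflux and lipid receptors 5 were higher by pre-mRNA: Rxra, Scarb1, Soat1, Lpcat3 and Scd2. Scarb1, the HDL receptor, had 2175 and 3146 against 279 and 561 pre-mRNA reads (2.72 ± 0.35). The desaturase Scd2 was higher in both measures (1377 and 1106 against 232 and 316 by mRNA, 2.19 ± 0.26; 224 and 223 against 10.6 and 24.7 by pre-mRNA, 3.70 ± 0.48). Among 27 glycolysis and HIF-1 target genes Gpi1, Pfkfb4, Egln3 and Bnip3 were higher and the sugar transporter Slc2a6 lower by pre-mRNA, with a median of 0.75. Egln3, an oxygen-sensing prolyl hydroxylase, had 1449 and 752 against 44.2 and 40.4 pre-mRNA reads, with 101 and 119 in LPS alone (4.59 ± 0.49). By mRNA limma called 0 of these 27 (6 higher and 2 lower unadjusted) and limma-voom 1, higher (0.648% of all genes). Total-read scaling called 6 higher and 0 lower by pre-mRNA. Neurl2, a ubiquitin ligase subunit of muscle, had the largest pre-mRNA difference upwards (409 and 356 against 19.4 and 10.1, 4.67 ± 0.43; mRNA 2.29 ± 0.31). It overlaps the lysosomal gene Ctsa on the other strand.

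**Figure D4:**
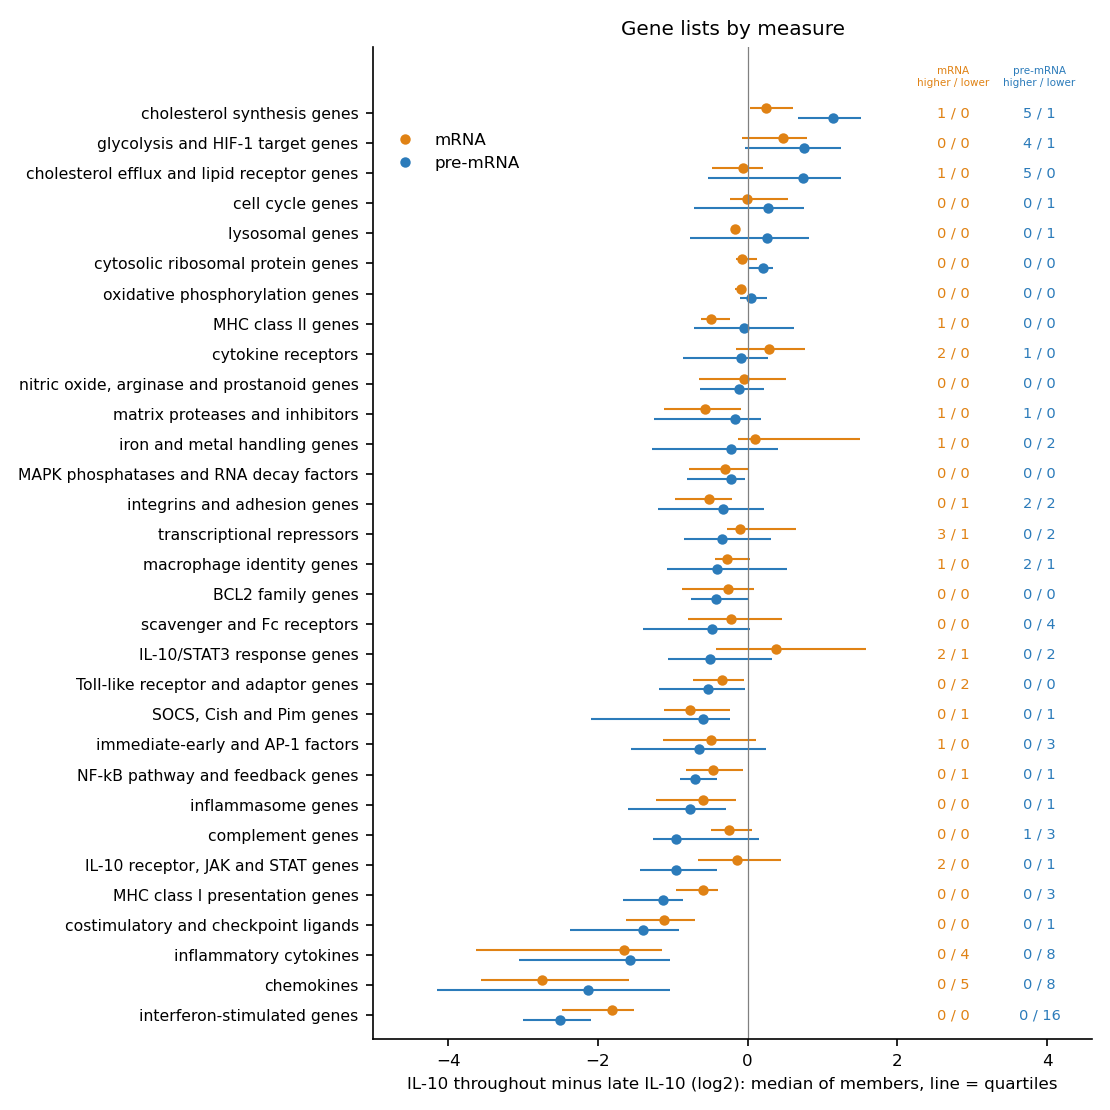
Median difference between IL-10 throughout and late IL-10 (log2, x axis) over the tested members of each of 31 gene lists, by mRNA (orange) and pre-mRNA (blue), with lines from the lower to the upper quartile of the members and the counts called higher and lower at the right. Chemokines, cytokines and interferon-stimulated genes lie lowest and cholesterol synthesis genes by pre-mRNA highest.

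Phagocytic receptors and complement genes were mixed. By pre-mRNA 4 of 24 scavenger and Fc receptors were lower, Clec4n (Dectin-2), Timd4 and the apoptotic-cell receptors Axl (738 and 649 against 2816 and 3224, -2.12 ± 0.40) and Mertk (514 and 280.5 against 6241 and 2334, -3.33 ± 0.68). Of 15 complement genes C3, Cfb and Itgax were lower and Itgam higher. Total-read scaling called 2 scavenger receptors lower and 1 higher, and 1 complement gene lower and 1 higher. By mRNA both scalings called 1 scavenger receptor higher. In the list of nitric oxide, arginase and prostanoid genes limma called 0 of 21 in either measure (5 higher and 2 lower by mRNA and 4 and 2 by pre-mRNA without adjustment; limma-voom called 1 by mRNA and 0 by pre-mRNA). Nos2 mRNA was 33778 and 21756 against 17195 and 7613 (1.24 ± 0.48), and Ptgs2, the inducible cyclooxygenase, 103220 and 44854 against 93899 and 52415 (-0.04 ± 0.44). The schedules overlapped for Ptgs2 and not for Nos2, whose difference did not pass (adjusted p = 0.301). Il1rn, the IL-1 receptor antagonist, did not pass by mRNA (1.45 ± 0.74, adjusted p = 0.445) or pre-mRNA (-0.94 ± 0.55). Neither limma nor limma-voom called any of 28 oxidative phosphorylation genes, 36 cytosolic ribosomal protein genes or 21 MAPK phosphatases and RNA decay factors in either measure. At an unadjusted p under 0.05 these 3 lists had 0 higher and 1 lower, 0 and 0, and 1 and 2 by mRNA, and 1 and 0, 1 and 0, and 1 and 3 by pre-mRNA. The shares over all genes were 6.04% higher and 7.99% lower by mRNA, and 8.73% and 12.9% by pre-mRNA.

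Other genes called by size were of mixed function. By mRNA the ubiquitin ligase March1, which acts on MHC class II (6967 and 7066 against 848 and 797, 3.09 ± 0.31), the TNF receptor family member Relt (295 and 339 against 43.4 and 32.2, 3.05 ± 0.33), Rab3il1 (2.98 ± 0.39), Zc3h12d (2.81 ± 0.21) and the IL-6 receptor Il6ra (1.65 ± 0.18) were higher. The semaphorin Sema6d (56.3 and 49.9 against 623 and 643, -3.55 ± 0.26), the RNA-binding Mex3a (-4.20 ± 0.48) and Cdc42ep1 (-3.70 ± 0.55) were lower. By pre-mRNA Inpp5d, the phosphatase SHIP1 (6141 and 9622 against 1065 and 1293, 2.71 ± 0.28), Plekhg3 (3.31 ± 0.52) and Vgll4 (2.57 ± 0.31) were higher. Fam26f (-5.62 ± 0.78), the TNF family ligand Tnfsf15 (254 and 312 against 2586 and 2207, -3.08 ± 0.26) and the Notch ligand Dll1 (-4.76 ± 0.88) were lower. Pla1a, Serpina3f and Apol9b, each with 1 or 2 pre-mRNA reads in the long schedule, had 188, 137 and 141 in the late one. St3gal5 and Ifitm1 differed between the measures. St3gal5, a ganglioside synthase, was lower by mRNA (926 and 1181 against 3597 and 4709) with a precursor difference of 0.46 ± 0.32, and Ifitm1 stood at 1.33 ± 0.28 by mRNA and -3.01 ± 0.63 by pre-mRNA, neither past the threshold, with a difference between measures of -4.34 ± 0.69.

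The remaining lists held few calls. By pre-mRNA the AP-1 relatives Batf2, Batf3 and Mafk were lower of 25 immediate-early genes, the lysosomal lipase Lipa of 30 lysosomal genes (929 and 1144 against 2760.3 and 3163, -1.52 ± 0.21), the cyclin Ccnd2 of 33 cell cycle genes (164 and 60.4 against 3607 and 1478, -4.52 ± 0.87), and Mt1 and the iron transporter Slc11a2 (-1.37 ± 0.27) of 19 metal handling genes. Total-read scaling called 1, 0, 1 and 0 of these lists lower. Limma called 0 of 15 BCL2 family genes in either measure (1 higher and 3 lower by mRNA and 0 and 3 by pre-mRNA without adjustment; limma-voom 1 lower and 0). By mRNA it called 0 of 19 inflammasome, 30 lysosomal, 24 scavenger, 15 complement and 33 cell cycle genes, of which 6, 0, 4, 2 and 4 were lower and 1, 0, 3, 2 and 2 higher without adjustment, and limma-voom called 1, a scavenger receptor, lower. Over all genes 6.04% were higher and 7.99% lower by mRNA without adjustment, and 8.73% and 12.9% by pre-mRNA.

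The genes called between the schedules were set against LPS minus untreated. The group means of that comparison come from other libraries, but all 8 libraries share 1 estimate of the error, so the calls are not independent. The genes listed also depend on LPS: none had under 11 reads in an LPS mRNA library. Genes with fewer reads there do not enter these counts or shares, so the split by LPS holds only for the genes listed. Of the 65 genes lower by mRNA with IL-10 throughout 58 had risen with LPS and 2 had fallen, where LPS called 35.7% of all genes, 19.2% up and 16.5% down. Of the 59 higher genes 12 had risen and 32 fallen. By pre-mRNA 186 of the 245 lower genes had risen and 15 fallen, and of the 84 higher genes 15 had risen and 51 fallen, where LPS called 44.0% of all genes, 22.3% up and 21.7% down. The median LPS difference of the lower genes was 2.66 by mRNA and 2.50 by pre-mRNA, and that of the higher genes was -0.81 and -1.10.

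Each schedule was also fitted against LPS alone, and since these comparisons share libraries only their own values are given. IL-10 throughout had 136 genes higher and 120 lower than LPS by mRNA (2.24% of genes, 1.19% and 1.05%) and 272 and 474 by pre-mRNA (6.7%, 2.44% and 4.26%). Late IL-10 had 109 genes higher and 7 lower by pre-mRNA (1.04%, 0.979% and 0.0629%). By mRNA limma called 0.0% of genes with late IL-10 (limma-voom 0 genes), and without adjustment 92 were higher and 15 lower. After 30 min the precursor was above LPS alone for Steap4 (7.75 ± 0.75, adjusted p = 0.00396), Mt1 (4.82 ± 0.33), Ggta1 (4.04 ± 0.26), Bzw2 (3.83 ± 0.31), Mmp19 (3.63 ± 0.34), Elovl6 (3.43 ± 0.27) and Il4ra (2.98 ± 0.32). For the same 7 genes the mRNA differences of late IL-10 from LPS were 4.07 ± 0.61, 1.41 ± 0.20, 0.71 ± 0.20, 0.36 ± 0.25, 0.39 ± 0.46, 0.30 ± 0.40 and 1.19 ± 0.31, none past the threshold.

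Defining genes of other cell types were also read in these libraries. Of 14 macrophage markers 13 were in the table, with summed mRNA of 991100 and 862200 normalized reads in the long schedule against 1224000 and 1072000 in the late one. Of 10 dendritic cell markers 6 were listed, summing to 4829 and 3105 against 16140 and 9013 by mRNA, a sum in which Itgax had 4215 and 2686 against 15455 and 8348. By pre-mRNA Itgax and Batf3 were called lower among them. Of 13 neutrophil and granule genes 8 were listed (4795 and 4908 against 4026 and 3247 by mRNA), and limma called Mmp8 by pre-mRNA and none by mRNA, where limma-voom called 1 higher. Of 9 T cell genes 3 were listed (796.2 and 409.1 against 956.7 and 542.1 by mRNA), with Lck lower by pre-mRNA. Of 9 stromal genes 3 were listed (789.9 and 634.4 against 2486 and 2372 by mRNA), with Pdgfrb lower by pre-mRNA. Those sums do not describe each of the 3. Their mRNA differences ran from -1.90 to 0.04, and their median log2 mRNA level was 6.70 and 5.13 against 6.65 and 5.09. The table lists no gene with under 11 reads in an LPS mRNA library, so markers missing from it were not analysed here. Of 15 genes on the RNA quality and stress list 2 were listed, and the heat-shock gene Hspa1b was lower by mRNA (252 and 168 against 1829 and 2445, -3.36 ± 0.36); it has a near-identical copy. The part of these markers in the results was not tested.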

How the data were processed

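The authors deposited 1 table of group signal values for 11415 genes: mean normalized mRNA and pre-mRNA reads for each of 4 groups. The submitters' processing notes name mm10, DESeq and Trim Galore. For versions, aligner, counter and pre-mRNA assignment: not given in the sources used here. Each deposited signal value equals the average of a pair of size-factor-scaled read counts, 1 per library, and both counts were recovered with no second solution for 100% of values (tested on simulated data). All p-values rest on that step and measure only the spread between these libraries, which may in part be technical.

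Values were fitted in R 4.3.3 with limma 3.58.1 (trend) on the log2(normalized reads + 1) scale, which understates changes of low genes. Genes averaging 1 normalized read or more were kept, and every library of a measure (8) entered a single fit on group, so groups share the error. A count test was not used for the main results, since the deposited columns hold normalized means. The recovered counts entered limma-voom as an alternative. The pre-mRNA minus mRNA test fitted both measures together. Gene lists, named genes and the comparison itself were chosen with earlier results of these data known. Named genes were, per measure, the 10 largest called differences each way (mean at least 5, no overlap between the groups, predicted genes skipped), the 5 largest each way for the test between measures, up to 2 per list by adjusted p, and 13 fixed genes. Il10, Cxcl2, Itgb2, Pygb, Fdps, Sc5d, Mertk, Hspa1b, and genes given only as called members of a list or class, were named after their values were seen. Some results that the rule selects are not reported here. Floors (3 reads over a group) and 95% exact binomial intervals cover counting error only. Gene positions are from GENCODE vM21 (mm10), promoter sequences from RefSeq (GRCm38.p6). Alternatives were pseudocounts of 0.5 and 5, filters, 2 scalings, limma-voom, fewer groups, a pool block and leaving out each library.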

Additional observations from a re-analysis of the deposited data

How the results depend on the processing

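No paired analysis was possible because the columns carry no replicate number. A block of pools matched from the values, whose p-values can be too small since the matching used the same values, raised the calls to 1562 by mRNA, 2653 by pre-mRNA, 537 between the measures and 839 in both measures. Fitting only the LPS-treated groups gave 66, 131, 36 and 17 in the same order, and only the 2 schedules 0, 143, 7 and 0 (limma-voom on those 4 libraries called 0 by mRNA and 11 higher and 42 lower by pre-mRNA). With no filter on low values pre-mRNA had 26 calls and 4 genes passed in both measures. A pseudocount of 5 gave 58 in both. Total-read scaling gave 30 calls between the measures. Leaving out 1 library at a time gave 1 to 105 calls by mRNA, 1 to 604 by pre-mRNA, 15 to 68 between the measures and 0 to 22 genes past the threshold in both measures. By mRNA the values were 8 and 2 without library A or B of IL-10 throughout, 1 and 2 for late IL-10, 55 and 54 for LPS and 105 and 77 for untreated. By pre-mRNA they were 1 and 1, 1 and 33, 561 and 604, and 103 and 104. Where 1 library was left in a group, it was assumed to vary like the others. Frmd6 was the 1 pre-mRNA call without either library of IL-10 throughout or library A of late IL-10. Fewer libraries enter these fits, and the cause of other changes was not tested. Total-read scaling (for the 3 other counts), upper-quartile scaling, limma-voom, a pseudocount of 0.5 and a filter at a mean of 10 kept these counts within 1.5 times. The genes called changed more than the counts. Total-read scaling kept 101 of the 124 main calls by mRNA, 202 of 329 by pre-mRNA and 23 of 55 between the measures. Upper-quartile scaling kept 113, 250 and 37 in the same order. No main call of any of the 3 tests changed sign under a setting that tested the gene. Depth limits Csf2, Cxcl9, Tslp, Pla1a, Serpina3f, Apol9b and Dll1 by pre-mRNA, with 0 to 2 reads in the long schedule.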
